A study of Caenorhabditis elegans with 6 samples.

Results

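Basement membranes are thin sheets of extracellular matrix that lie under epithelia and around muscle, nerve and gonad. A laminin network and a type IV collagen network form the sheet, and nidogen, perlecan, SPARC, fibulin and type XVIII collagen bind to them. In the worm Caenorhabditis elegans, basement membranes cover the pharynx, the intestine, the gonad and the body wall muscles, and body wall muscle makes much of the type IV collagen that other tissues carry. The genes described here are the 10 that encode these core components: emb-9 and let-2 (type IV collagen chains), lam-1, lam-2, lam-3 and epi-1 (laminin subunits), nid-1 (nidogen), ost-1 (SPARC), cle-1 (type XVIII collagen) and fbl-1 (fibulin-1). They were chosen by name, through the RefSeq locus tag of each row, from 20894 rows of the expression table, and all 10 had a row.

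RNA of whole worms, labelled as adults, was sequenced from the bcf-1(ylf1) mutant and from N2, the wild-type strain, both grown on Escherichia coli OP50, with 3 libraries per genotype. BCF-1 is described in the series title as a glycosylated intestinal protein that binds bacteria, and the labels do not state what the ylf1 allele changes, the age in days or how many worms each library pooled. The submitters' design text describes the 3 replicates as biological and independent of each other through collection and processing. Values are read as FPKM (fragments scaled to transcript length and to library total). The table does not name its unit, and TPM, which is also scaled to length, could not be told apart from it. Levels of different genes are compared on this length-scaled unit, and the depth behind them is unknown.

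The targeted gene was low in the mutant, with bcf-1 at 63.7, 72.1 and 60.01 FPKM in bcf-1(ylf1) libraries, against 374, 412 and 499 FPKM in N2 libraries (limma adjusted p = 3.65e-06). Library totals ran from 659249 to 668784 FPKM in bcf-1(ylf1) and from 671119 to 687573 FPKM in N2. N2 replicate 1 stood apart from the other N2 libraries on the second principal component (8.79% of the variance), with a score of 28.92 against -14.92 and -13.43; without it 4 members were still higher and 2 lower. All 9 markers of the adult stage (vitellogenin genes and adult cuticle collagen genes) fell, and their summed level was 26.7 to 67.3 FPKM in bcf-1(ylf1) and 3254 to 5308 FPKM in N2. vit-2 was at 7.40, 14.1 and 3.84 FPKM in bcf-1(ylf1) and at 1132, 688 and 999 FPKM in N2. Whether the fall of these markers bears on the values below was not tested. In whole worms, fewer cells of a type and less RNA per cell cannot be told apart.

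Across the 10 genes, fibulin-1 and nidogen transcripts fell in the mutant and both laminin alpha genes and both type IV collagen genes rose, while lam-1, lam-2, ost-1 and cle-1 did not pass the test. Genes were tested with limma on log2(FPKM + 1), with Benjamini-Hochberg adjusted p under 0.05 as the threshold. By that test 4 of the 10 were higher and 2 were lower, beside 34.6% higher and 15% lower, and 49.6% called in either direction, among the 13576 tested genes. The libraries of the genotypes did not overlap for 7 of the 10, beside 58.4% of tested genes. At this scaling the counts lie close to the shares over all genes and are not a result about the members as a set. The median log2 change was 0.24 over the 10 and 0.24 over all tested genes, but this depends on the scaling: it was 0.335 over the 10 and 0.07 over all genes after quantile normalisation. Under that setting 6 of the 10 members were higher and 2 lower, beside 3255 higher and 2803 lower of the 13576 tested genes. The share that was higher was thus larger among the members there, a difference that was not tested. lam-3 passed the filter on low values only through its mutant libraries, and the other 9 were above 1 FPKM in all 6 libraries. After median-ratio scaling, which brings the median of all genes to 0.0017, 2 members were higher and 2 lower, beside 3065 and 3096 of the 13576 tested genes. Without bcf-1(ylf1) replicate 1 the counts were also 2 and 2, beside 3459 and 1663.

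**Figure D1:**
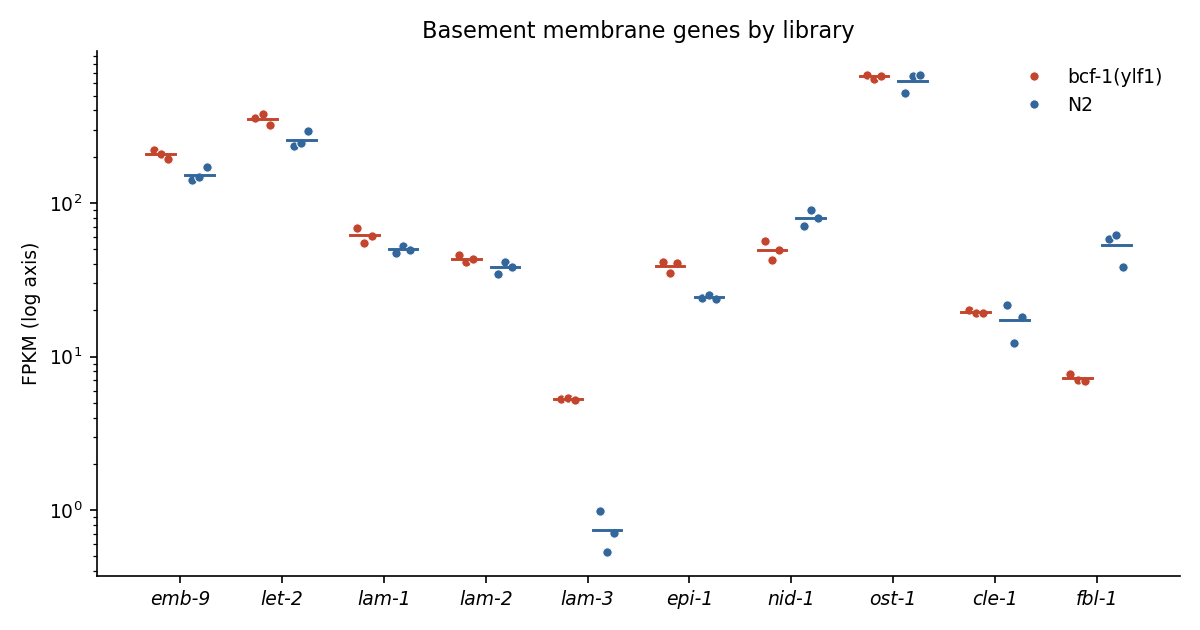
FPKM of each gene in each library on a log axis; red points are the 3 bcf-1(ylf1) libraries, blue points the 3 N2 libraries, and short lines their means. fbl-1 lies between 6.96 and 7.67 FPKM in the mutant and between 38.3 and 62.1 FPKM in N2, and lam-3 is the lowest gene in both genotypes.

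The order of levels was similar in the genotypes at the top. ost-1 was highest, with means of 666.6 FPKM in bcf-1(ylf1) and 625.6 FPKM in N2, followed by let-2 and emb-9, and the ranges of these neighbours did not overlap in either genotype. Below them, the order in bcf-1(ylf1) was lam-1, nid-1, lam-2, epi-1, cle-1, fbl-1 and lam-3. In N2 it was nid-1, fbl-1, lam-1, lam-2, epi-1, cle-1 and lam-3, so fbl-1 stood in place 9 in the mutant and in place 5 in N2. Among these neighbours, the ranges overlapped between lam-1 and nid-1 and between nid-1 and lam-2 in bcf-1(ylf1), and between fbl-1 and lam-1 in N2. Together the 10 genes held 0.212% to 0.229% of the library total in bcf-1(ylf1) and 0.173% to 0.203% in N2.

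The type IV collagen genes rose together. EMB-9 and LET-2 are the alpha1-like and alpha2-like chains that assemble into the collagen IV trimer. emb-9 (K04H4.1; chromosome III, 9336881 to 9344447, minus strand, WBcel235) was at 221, 209.8 and 195 FPKM in bcf-1(ylf1), against 141.5, 146.7 and 171.1 FPKM in N2. let-2 (F01G12.5; chromosome X, 16380597 to 16389340, minus strand) was at 358, 380.4 and 321 FPKM in bcf-1(ylf1) and at 236, 246 and 294 FPKM in N2. Every mutant library was above every N2 library for both genes, and N2 replicate 3 was the N2 library nearest to the mutant. Means were 1.36 and 1.37 times those of N2 for emb-9 and let-2, with log2 changes of 0.45 (SE 0.12, limma adjusted p = 0.0135) and 0.45 (SE 0.13, limma adjusted p = 0.0169). Relative to the median of all genes these changes were 0.21 and 0.22.

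Each library held the 2 collagen transcripts in nearly the same proportion. The ratio of let-2 to emb-9 was 1.62, 1.81 and 1.65 in bcf-1(ylf1) and 1.67, 1.68 and 1.72 in N2, and the difference in mean log2 ratio was 0.0040 (exact permutation test, two-sided, p = 1.0). When all 13575 other tested genes were ordered by the distance of their centred log2 profile over the 6 libraries from that of emb-9, let-2 stood in place 4 with a distance of 0.127. natc-2, F52A8.1 and cal-8 came before it and acr-20 just after it. No other member was closer to emb-9 than lam-1, in place 667.

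The calls of both collagen genes were lost after median-ratio scaling, with adjusted p-values of 0.347 for emb-9 and 0.387 for let-2 in limma, and without bcf-1(ylf1) replicate 1, with adjusted p-values of 0.0726 and 0.0675. Without N2 replicate 2 the adjusted p of let-2 was 0.055. Body wall muscle markers went in the same direction as these genes: 6 of 8 rose and 0 fell, beside 34.6% higher and 15% lower among all tested genes. Their summed levels were 2291 to 2474 FPKM in bcf-1(ylf1) and 1699 to 1905 FPKM in N2, and no marker of that list was at 0 in every library. unc-54, the major body wall myosin heavy chain gene, was at 804, 846 and 711 FPKM in bcf-1(ylf1) and at 424, 425 and 529 FPKM in N2. This direction was not particular to body wall muscle. Pharyngeal muscle markers rose in 8 of 9 cases and hypodermis markers in 5 of 6, with 0 lower in either list. Other lists went the other way: 5 of 7 intestine, 3 of 9 oocyte and eggshell, and all 9 adult stage markers fell. The part of muscle or other tissue RNA in the collagen values was not tested.

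**Figure D2:**
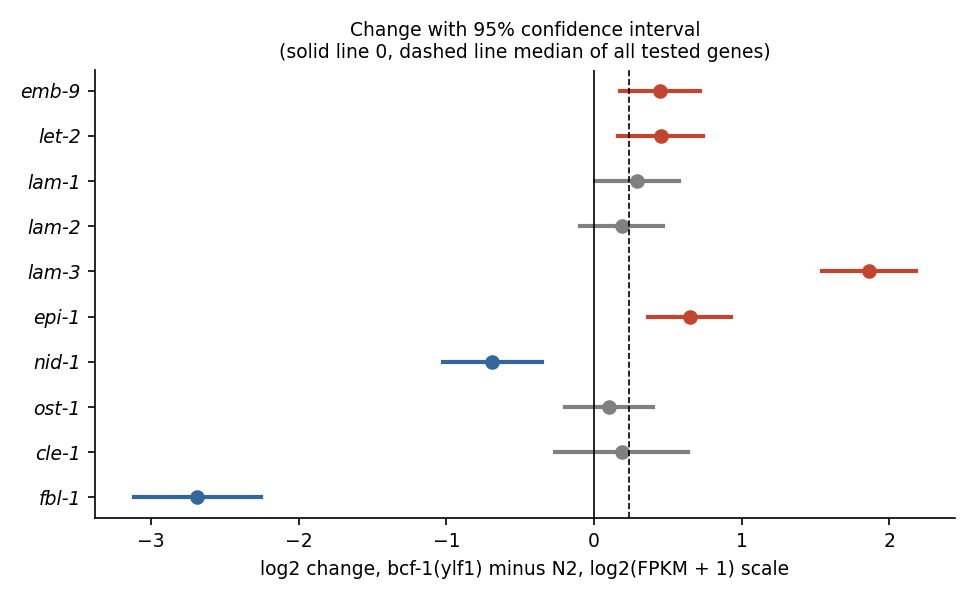
Log2 change of each gene, bcf-1(ylf1) minus N2, with its 95% confidence interval from limma; red marks genes called higher, blue genes called lower, grey genes not called. The intervals of lam-2, ost-1 and cle-1 include both 0 and the median of all tested genes at 0.24, and fbl-1 lies furthest from both.

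Laminins are trimers of an alpha, a beta and a gamma chain. The worm has 1 beta gene, lam-1, and 1 gamma gene, lam-2, and its alpha chain is either EPI-1, found in many basement membranes, or LAM-3, the alpha chain of the pharyngeal basement membrane. The alpha genes rose in the mutant and the shared beta and gamma genes did not pass the test. lam-3 (T22A3.8; chromosome I, 10608466 to 10621435, plus strand) was at 5.30, 5.36 and 5.24 FPKM in bcf-1(ylf1) and at 0.981, 0.535 and 0.712 FPKM in N2. The mutant libraries were tightly grouped and all lay above the N2 libraries, none of which reached 1 FPKM. Its mean was 7.14 times that of N2, and its log2 change of 1.86 (SE 0.14, limma adjusted p = 1.98e-05) understates this because 1 was added to low values; with 0.1 added the change was 2.71. By size of rise lam-3 stood in place 323 of 13576 tested genes, a set it entered only through its mutant libraries.

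epi-1 (K08C7.3; chromosome IV, 10666823 to 10679291, plus strand) was at 41.2, 34.8 and 40.5 FPKM in bcf-1(ylf1), against 24.1, 25.2 and 23.7 FPKM in N2. These groups did not overlap, and the mean was 1.60 times that of N2, with a log2 change of 0.65 (SE 0.12, limma adjusted p = 0.00256). It shares 29 exonic bases, 0.258% of its exonic sequence, with K08C7.4 on the opposite strand. The call of epi-1 held under every alternative. That of lam-3 held under every alternative that tested it, but lam-3 passed the filter only through its mutant libraries. The filter of at least 1 FPKM in all 6 libraries left lam-3 untested.

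The beta gene lam-1 (W03F8.5; chromosome IV, 5173332 to 5183746, plus strand) was at 68.4, 54.8 and 61.2 FPKM in bcf-1(ylf1) and at 47.5, 52.7 and 49.5 FPKM in N2. Its groups did not overlap, but its log2 change of 0.29 (95% confidence interval 0.0050 to 0.58) had a limma adjusted p of 0.0837, which became 0.045 after quantile normalisation. The gamma gene lam-2 (C54D1.5; chromosome X, 7143846 to 7151239, minus strand) was at 45.9, 41.3 and 42.96 FPKM in bcf-1(ylf1) and at 34.5, 41.4 and 38.3 FPKM in N2, and its lowest mutant library lay just below N2 replicate 2. Its log2 change of 0.19 had an interval of -0.09 to 0.47 (limma adjusted p = 0.237), and it was -0.07 after median-ratio scaling. The profile of lam-1 stood in place 117 and that of ost-1 in place 154 among 13575 genes ordered by closeness to lam-2, and the 5 closest were F54C8.7, clhm-1, bus-6, Y65B4A.2 and H40L08.1.

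Ratios between subunits cancel the scaling of a library. The 3 against 3 design cannot give a two-sided exact permutation p below 0.1, and with adjustment over the 6 ratios examined the smallest adjusted p was 0.15, so none of the ratios could pass the threshold. The ratio of the summed alpha genes to lam-2 was 1.01, 0.972 and 1.06 in bcf-1(ylf1) and 0.728, 0.620 and 0.637 in N2 (exact p = 0.1), so every mutant library held more alpha transcript per gamma transcript than every N2 library. That of lam-1 to lam-2 was 1.49, 1.33 and 1.43 in bcf-1(ylf1) and 1.38, 1.27 and 1.29 in N2, with overlap (exact p = 0.2). Within the alpha pair, lam-3 to epi-1 was 0.129, 0.154 and 0.129 in bcf-1(ylf1) and 0.0407, 0.0213 and 0.0301 in N2, a difference of 2.21 on the log2 scale without overlap (exact p = 0.1). That difference was 1.21 with 1 added to each value and 1.66 under quantile normalisation. Put as a share, lam-3 made up 11.4%, 13.4% and 11.5% of the laminin alpha level in bcf-1(ylf1) and 3.91%, 2.08% and 2.92% in N2. Collagen relative to laminin, as emb-9 to lam-2, was 4.81, 5.08 and 4.53 in bcf-1(ylf1) and 4.11, 3.54 and 4.47 in N2 (exact p = 0.1), and the closest libraries of the genotypes were nearly level.

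**Figure D3:**
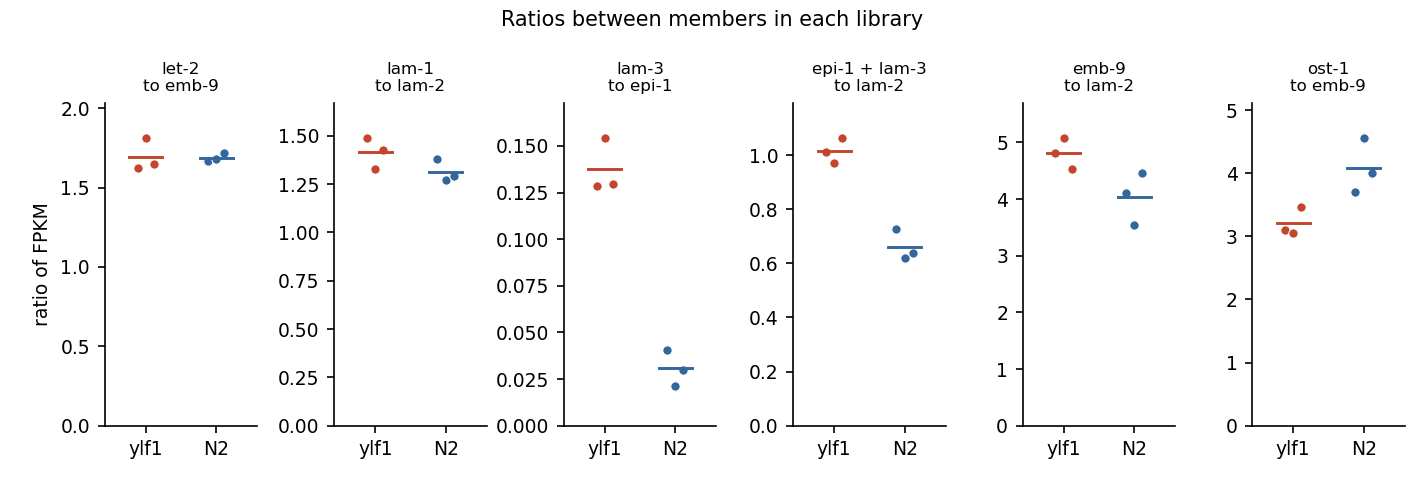
Ratio of FPKM values between the named genes in each library, with bcf-1(ylf1) in red, N2 in blue and lines at the means; each axis starts at 0. The ratio of let-2 to emb-9 overlaps between the genotypes, while lam-3 to epi-1 is at least 0.129 in the mutant and at most 0.0407 in N2.

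Pharyngeal muscle markers moved with lam-3. Of 9 listed, 8 rose and 0 fell, beside 34.6% higher and 15% lower among all tested genes. Among the rises, ceh-22 passed the filter on low values only through its mutant libraries, with 0.125, 0.181 and 0.345 FPKM in N2. The summed level of the list was 307.5 to 349 FPKM in bcf-1(ylf1) and 63.0 to 80.3 FPKM in N2, with no marker at 0 in every library. The pharyngeal myosin gene myo-1 was at 54.3, 60.01 and 58.5 FPKM in bcf-1(ylf1) and at 7.61, 8.53 and 11.2 FPKM in N2. Hypodermis markers also rose in 5 of 6 cases and body wall muscle markers in 6 of 8, with 0 lower in either list. Intestine markers went the other way, with 5 of 7 lower. The part of pharyngeal or other tissue RNA in the lam-3 values was not tested.

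Nidogen transcripts fell. Nidogen binds laminin and type IV collagen and, in the worm, acts in the positioning of axons and synapses. nid-1 (F54F3.1; chromosome V, 12910107 to 12917221, plus strand) was at 56.95, 42.2 and 49.4 FPKM in bcf-1(ylf1) and at 71.2, 89.7 and 79.8 FPKM in N2. All mutant libraries lay below all N2 libraries, and the N2 mean was 1.62 times the mutant mean. The log2 change was -0.69 (SE 0.15, limma adjusted p = 0.00464), -0.92 relative to the median of all genes, and it ran from -0.95 to -0.58 over the alternatives with the call kept in each. Its direction was opposite to that of emb-9, let-2, lam-3 and epi-1, and of the 6 of 8 body wall muscle markers called higher. The 2 uncalled markers of that list, unc-27 and hlh-1, had log2 changes of -0.067 and 0.303. The part of muscle RNA in the nid-1 values was not tested.

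SPARC, a collagen-binding glycoprotein that in the worm is made by body wall muscle, showed no difference that passed the test. ost-1 (C44B12.2; chromosome IV, 1107396 to 1110872, plus strand) was at 684.6, 640.3 and 675 FPKM in bcf-1(ylf1) and at 523, 669 and 685 FPKM in N2. The groups overlapped, with N2 replicate 1 alone below the mutant range. Its log2 change was 0.10 with a 95% confidence interval of -0.20 to 0.40 (limma adjusted p = 0.545); it was -0.02 without N2 replicate 1 and -0.16 after median-ratio scaling, while quantile normalisation gave 0.34 with an adjusted p of 0.0292. Relative to collagen, ost-1 to emb-9 was 3.10, 3.05 and 3.47 in bcf-1(ylf1) and 3.70, 4.56 and 4.003 in N2, so each mutant library held less SPARC transcript per emb-9 transcript than each N2 library (exact permutation test, two-sided, p = 0.1).

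Type XVIII collagen, which carries a C-terminal endostatin domain and is found at basement membranes near the nervous system in the worm, did not pass the test either. cle-1 (C36B1.1; chromosome I, 8705668 to 8724279, minus strand) was at 19.97, 19.2 and 19.1 FPKM in bcf-1(ylf1) and at 21.8, 12.2 and 18.2 FPKM in N2. The N2 libraries spread around the mutant ones, with a coefficient of variation of 27.8% against 2.34% in the mutant. The log2 change was 0.19 with an interval of -0.26 to 0.64 (limma adjusted p = 0.457), and it was -0.03 without N2 replicate 2 and -0.06 after median-ratio scaling. cle-1 shares 158 exonic bases, 3.61% of its exonic sequence, with the opposite-strand gene cdk-8, and the sources used here do not state whether counting used strand.

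The largest change was in fibulin-1, which fell. FBL-1 is a secreted glycoprotein of gonadal and other basement membranes that acts in gonad shape together with the ADAMTS proteases GON-1 and MIG-17. fbl-1 (F56H11.1; chromosome IV, 9540806 to 9546252, plus strand) was at 7.67, 7.03 and 6.96 FPKM in bcf-1(ylf1) and at 58.7, 62.1 and 38.3 FPKM in N2. The mutant libraries were close to each other, and even the lowest N2 library, replicate 3, was far above them. Its mean was 7.34-fold lower in the mutant, with a log2 change of -2.69 (SE 0.19, limma adjusted p = 1.48e-05). Over the alternatives the change ran from -2.93 to -2.56, with the call kept in each. By size of fall fbl-1 stood in place 98 of 13576 tested genes, and nid-1, the other member that fell, in place 1454. fbl-1 has 8 annotated transcripts, with coding lengths from 1815 to 2253 bases, and the table gives 1 value for all of them, so isoforms were not told apart.

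All 9 adult stage markers moved in the same direction as fbl-1, and intestine markers mostly did. Oocyte and eggshell markers did so in part, and the remaining lists mostly did not. Beside these counts and those below stand 34.6% higher and 15% lower among all tested genes. Of 7 intestine markers 5 fell and 0 rose, with summed levels of 1566 to 1915 FPKM in bcf-1(ylf1) and 2250 to 2691 FPKM in N2. The falls were 3 without bcf-1(ylf1) replicate 1 and 3 without bcf-1(ylf1) replicate 3, and 1 marker rose under quantile normalisation and 1 with no filter. Of 9 oocyte and eggshell markers 3 fell and 0 rose, with sums of 269.8 to 302 FPKM in bcf-1(ylf1) and 326 to 842 FPKM in N2. The falls were 7 without N2 replicate 2 and 7 under median-ratio scaling, and without N2 replicate 1 there were 2 falls and 1 rise. Somatic gonad markers went both ways: of 6 tested, 3 rose and 1 fell, and the sums of 54.3 to 56.8 FPKM in bcf-1(ylf1) and 50.3 to 60.95 FPKM in N2 overlapped, with 2 falls under either scaling. No marker of these lists was at 0 in every library, and the part of such tissues in the fbl-1 values was not tested. Hypodermis markers rose in 5 of 6 cases and fell in 0, at 895 to 1007 FPKM in bcf-1(ylf1) and 250.0 to 377 FPKM in N2, with 3 rises under median-ratio scaling. Of 8 neuron markers 1 rose and 0 fell, with sums of 270.1 to 298 FPKM in bcf-1(ylf1) and 249.7 to 274 FPKM in N2, with 2 falls under median-ratio scaling and 2 under quantile normalisation. Early embryo markers were near 0 everywhere: 7 genes summed to 0.395 to 0.880 FPKM in bcf-1(ylf1) and 0.330 to 0.669 FPKM in N2, hnd-1 was at 0 in all 6 libraries, and none was tested.

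**Figure D4:**
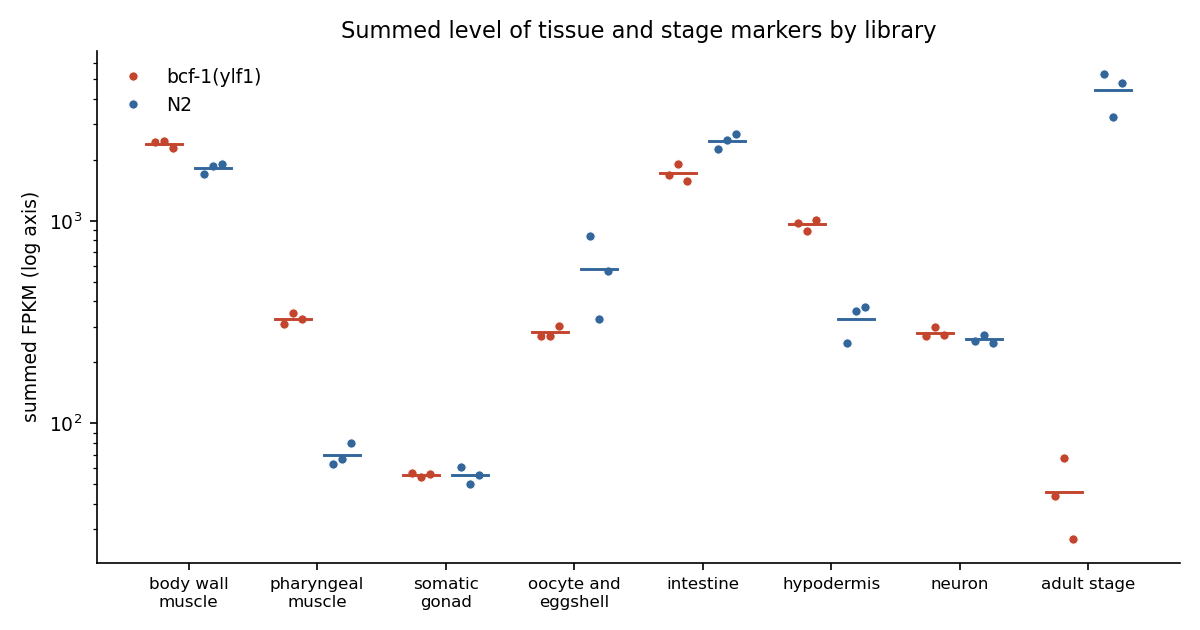
Summed FPKM of each marker list in each library on a log axis, with bcf-1(ylf1) in red, N2 in blue and lines at the means. Pharyngeal muscle sums lie at 307.5 to 349 FPKM in the mutant and 63.0 to 80.3 FPKM in N2, and adult stage sums lie lower in all 3 mutant libraries.

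Genes listed as surrounding the basement membrane were described from 5 lists of 58 genes, of which 57 had a row and 54 were tested. A place on a list does not show that a gene acts in basement membranes, or only there. In all, 29 rose and 7 fell, again beside 34.6% and 15% of all tested genes, with a median log2 change of 0.40. The same shares of all tested genes stand beside the counts of each list below. After median-ratio scaling 13 rose and 11 fell, while after quantile normalisation 24 rose and 9 fell. The balance of rises and falls thus turned on which scaling was used. The count of rises was 18 without bcf-1(ylf1) replicate 1 and 19 without bcf-1(ylf1) replicate 3, and the count of falls was 4 without bcf-1(ylf1) replicate 2 and 4 without N2 replicate 2.

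Of 13 other matrix genes 7 rose and 2 fell, with 3 rises under median-ratio scaling and 4 under quantile normalisation. fbn-1, a fibrillin-related matrix gene, was at 25.3, 26.1 and 21.3 FPKM in bcf-1(ylf1) and at 2.64, 2.87 and 3.30 FPKM in N2, 8.25 times the N2 mean (limma adjusted p = 5.1e-06). dig-1, which encodes a giant matrix protein, rose to 5.63 ± 0.952 FPKM in bcf-1(ylf1), against 1.79 ± 0.0557 FPKM in N2 (SD, n = 3 each; limma adjusted p = 0.000195), and col-99, a transmembrane collagen gene, rose by 0.89 log2 units. unc-52, the perlecan gene of muscle basement membrane, was at 132, 154 and 125 FPKM in bcf-1(ylf1) and at 83.7, 87.3 and 108 FPKM in N2, a log2 change of 0.56 (limma adjusted p = 0.0104, and 0.192 after median-ratio scaling). The peroxidasin gene pxn-2, whose product cross-links type IV collagen, the hemicentin gene him-4 and the netrin gene unc-6 rose by 0.64, 0.47 and 0.45 log2 units, and each of these calls was lost under both quantile normalisation and median-ratio scaling (limma adjusted p 0.193 and 0.0506 for pxn-2, 0.337 and 0.216 for him-4, 0.39 and 0.291 for unc-6). Without bcf-1(ylf1) replicate 1 or replicate 2 the adjusted p of him-4 was 0.0791 or 0.0518, and that of unc-6 was 0.101, 0.113 and 0.0693 without bcf-1(ylf1) replicate 1, bcf-1(ylf1) replicate 3 and N2 replicate 3. The falls were of smoc-1, a SPARC-related gene, with a change of -0.65 whose adjusted p was 0.0594 without bcf-1(ylf1) replicate 2 and 0.0719 without N2 replicate 2, and of the F-spondin gene spon-1, named after its values were seen, with -0.51. The call of spon-1 was lost without each of bcf-1(ylf1) replicates 2 and 3 and N2 replicates 1 and 2, with limma adjusted p-values of 0.127, 0.0905, 0.0831 and 0.125. The agrin gene agr-1 and the papilin gene mig-6 had changes of 0.12 and 0.10 and did not pass the test.

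Among 11 tested receptors and surface proteoglycans 7 rose and 2 fell, with 4 rises under median-ratio scaling. dgn-1, the dystroglycan gene whose product binds laminin, was at 41.7, 37.4 and 34.3 FPKM in bcf-1(ylf1) and at 17.95, 16.5 and 20.1 FPKM in N2 (log2 change 1.01, limma adjusted p = 0.000379). The glypican gene gpn-1 was at 4.74, 3.94 and 3.98 FPKM in bcf-1(ylf1) and at 1.08, 0.890 and 0.789 FPKM in N2, 4.59 times by ratio of means. Only N2 replicate 1 reached 1 FPKM among the N2 libraries, so gpn-1 passed the filter through its mutant libraries. In contrast lon-2, a glypican gene that acts in BMP signalling, was at 9.93, 9.33 and 10.8 FPKM in bcf-1(ylf1) and at 23.9, 28.4 and 20.4 FPKM in N2 and fell. Integrin genes differed little: pat-3, the beta chain, had a log2 change of 0.03 and ina-1, the laminin-binding type of alpha chain, one of -0.04, neither past the test, and pat-2, the alpha chain of muscle attachments, rose by 0.36 (limma adjusted p = 0.0369, and 0.0313 to 0.576 over the alternatives). The call of pat-2 was lost without each of bcf-1(ylf1) replicates 1 and 3 and N2 replicates 1 and 3. The syndecan gene sdn-1 rose by 0.58 log2 units (adjusted p = 0.0826 in limma after median-ratio scaling). Of the discoidin domain receptors, which bind collagen, ddr-2 rose by 0.53 and ddr-1, named after its values were seen, fell by 0.50 on the log2 scale. The call of ddr-1 was lost without each single mutant library (limma adjusted p 0.0804, 0.0803 and 0.0586) and without N2 replicate 2 (0.0783). The adjusted p of ddr-2 was 0.188 after median-ratio scaling and 0.407 with quantile normalisation, and 0.056, 0.082 and 0.0574 without bcf-1(ylf1) replicate 1, bcf-1(ylf1) replicate 3 and N2 replicate 3. dgn-2 and dgn-3 were at or near 0 and were not tested.

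**Figure D5:**
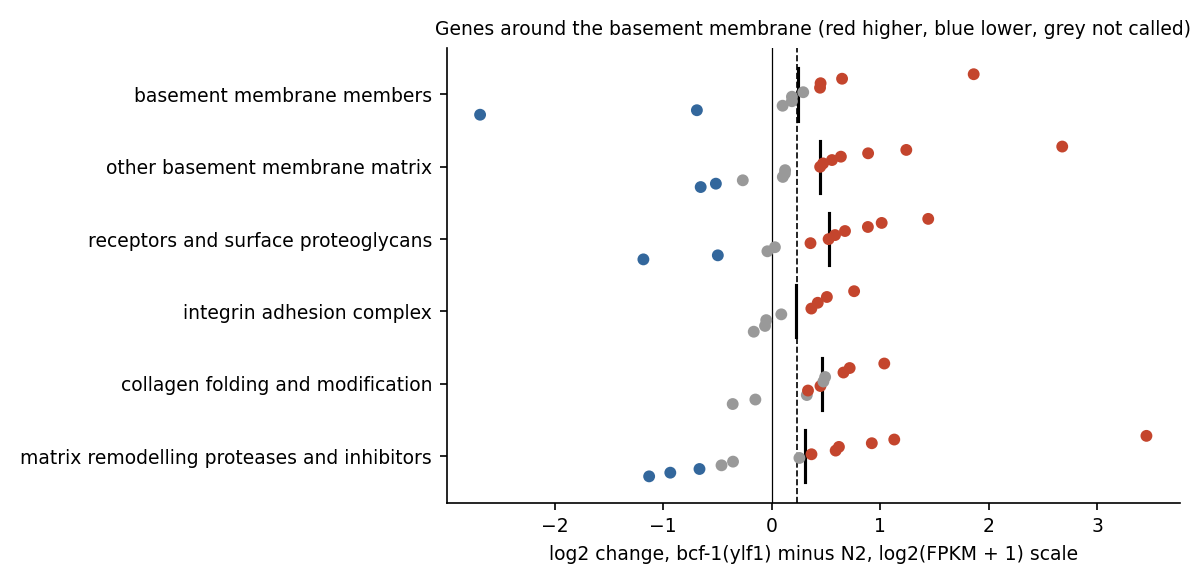
Log2 change of each tested gene of the member list and the 5 surrounding lists; red marks genes called higher, blue genes called lower, grey genes not called, and black bars the list medians. The dashed line is the median of all tested genes at 0.24, and the members' median lies on it at this scaling.

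In the integrin adhesion complex, the cytoplasmic proteins that anchor integrins to actin, 4 of 8 genes rose and 0 fell. Beside this stand 34.6% higher and 15% lower among all tested genes. The median log2 change of the list was 0.23, near the 0.24 over all tested genes, and it was -0.03 after median-ratio scaling. The vinculin gene deb-1 rose by 0.76, the talin gene tln-1 by 0.51 and the kindlin gene unc-112 by 0.37 log2 units. After median-ratio scaling 1 of the 8 rose, without bcf-1(ylf1) replicate 1 also 1, and without bcf-1(ylf1) replicate 3 the count was 2. The call of deb-1 held under each alternative, that of tln-1 was lost after median-ratio scaling and without bcf-1(ylf1) replicate 1, and that of unc-112 under that scaling and without bcf-1(ylf1) replicate 1 or 3 or N2 replicate 3.

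Enzymes that fold and modify collagens in the secretory pathway, which act on cuticle collagens as well, rose in 5 of 10 cases and fell in 0. phy-2, a prolyl 4-hydroxylase subunit gene, was at 88.8, 78.4 and 93.4 FPKM in bcf-1(ylf1) and at 36.4, 51.5 and 38.6 FPKM in N2 (log2 change 1.04, limma adjusted p = 0.000654). let-268, the lysyl hydroxylase gene needed for type IV collagen in the worm, was at 23.7, 17.2 and 26.5 FPKM in bcf-1(ylf1) and at 12.4, 15.7 and 11.4 FPKM in N2, 1.71 times the N2 mean (limma adjusted p = 0.013). That p was 0.0624 after median-ratio scaling, 0.0534 without bcf-1(ylf1) replicate 1 and 0.0551 without bcf-1(ylf1) replicate 3. pdi-2 and tmem-131, which act in collagen hydroxylation and secretion, rose by 0.66 and 0.45 log2 units. After median-ratio scaling 1 of the 10 rose and 1 fell, with the calls of pdi-2 and tmem-131 lost. The count of rises was 3 without bcf-1(ylf1) replicate 1 and 2 without bcf-1(ylf1) replicate 3, where tmem-131 was among the calls lost.

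Proteases that cut or remodel the matrix and their inhibitors moved both ways, with 6 of 12 tested genes higher and 3 lower, and 5 lower under either scaling. The matrix metalloprotease gene zmp-2 was at 30.2, 37.5 and 29.9 FPKM in bcf-1(ylf1) and at 1.15, 2.14 and 3.18 FPKM in N2, 15.1 times the N2 mean (limma adjusted p = 1.34e-05), and zmp-4 was at 46.1, 45.2 and 44.3 FPKM in bcf-1(ylf1) and at 26.1, 22.2 and 21.97 FPKM in N2. Among ADAMTS proteases, gon-1 rose by 0.59 log2 units (limma adjusted p = 0.0108; 0.0847 after median-ratio scaling, 0.0646 with quantile normalisation, 0.0594 without bcf-1(ylf1) replicate 1 and 0.0531 without bcf-1(ylf1) replicate 3), while mig-17 had a change of -0.36 with an adjusted p of 0.122, which became 0.0194 after median-ratio scaling and 0.00937 with quantile normalisation. adt-1 fell to 8.92 ± 0.902 FPKM in bcf-1(ylf1), against 20.9 ± 4.09 FPKM in N2 (SD, n = 3 each; limma adjusted p = 0.000632). The other falls, named after their values were seen, were of adt-3, with a log2 change of -0.93, and zmp-6, with one of -0.67.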

How the data were processed

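FPKM values of 6 libraries, as deposited by the authors in a single table, were the starting point. FPKM was inferred, since the header gives no unit: values are fractional, column sums differ, and rows detected in only 1 library had lower values the longer their exons (Spearman correlations from -0.567 to -0.272). TPM with rows left out would look alike. The submitters' processing notes name fastp and the build WBcel235; the aligner, quantifier, annotation release and strand use are unstated in the sources used here. Ratios of low values between libraries showed no common step (at most 0.88% of genes in any bin of 0.005 log2 units), so read numbers behind the values are unknown and counting error cannot be stated.

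Symbols came from RefSeq locus tags (19959 of 20894 rows matched), and positions, strands and overlaps from the Ensembl WBcel235 annotation. The 13576 genes that reached 1 FPKM in 3 or more libraries were fitted as log2(FPKM + 1) with limma 3.58.1 in R 4.3.3, genotype as the only term, with a mean-variance trend, two-sided tests and Benjamini-Hochberg adjustment over all tested genes at 0.05. Log2 changes are bcf-1(ylf1) minus N2, folds are ratios of mean FPKM, and ± is the SD over 3 libraries. Ratios between genes were compared by exact permutation in scipy 1.17.1. Alternatives changed the pseudocount, filter, scaling, trend and replicate block, or left out 1 library with the filter unchanged.

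Members, lists and markers were chosen with earlier results of these data known. Named are all members, in each of the 5 surrounding lists the 3 genes with the smallest p, and set partner genes such as unc-52, pat-3 and gon-1. The rule also takes 3 genes per marker list and col-19; as an exception, marker lists are given by counts and sums, with only unc-54, myo-1 and vit-2 named. Genes named after their values were seen are marked as such. The 5 genes closest in profile to emb-9 and to lam-2 are also named. Protein and promoter sequences were not used here.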

Additional observations from a re-analysis of the deposited data

How the results depend on the processing

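lam-3, epi-1, nid-1 and fbl-1 kept their direction and call under each of the 13 alternatives that tested them; lam-3 was not tested where at least 1 FPKM in all 6 libraries was required. The count of members higher, 4, was 2 after median-ratio scaling, 6 after quantile normalisation (lam-1 and ost-1 gained) and ran from 2 to 4 when 1 library was left out, with 2 lower in each of these. Over all tested genes, 4703 higher and 2035 lower became 3065 and 3096 after median-ratio scaling and 3255 and 2803 after quantile normalisation. With 1 library left out they ran from 3459 to 5732 higher and from 1663 to 2036 lower. In the surrounding lists, 29 higher and 7 lower became 13 and 11 after median-ratio scaling and 24 and 9 after quantile normalisation. These counts ran from 18 to 28 higher and from 4 to 8 lower with 1 library left out. After median-ratio scaling the changes of lam-2, ost-1, cle-1, pat-3, agr-1 and mig-6, none of them called, turned to -0.069, -0.161, -0.061, -0.229, -0.015 and -0.158, and agr-1 was at -0.218 after quantile normalisation. With 1 library left out, ost-1 ran from -0.023 to 0.172, cle-1 from -0.034 to 0.359, pat-3 from -0.031 to 0.11, ina-1 from -0.082 to 0.009, and the log2 difference in let-2 to emb-9 from -0.046 to 0.035. The causes of these changes were not tested.

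The genotypes share replicate numbers, but deviations of same-numbered libraries had correlations of 0.01, -0.074 and -0.277. No library correlated best with the one of its own number, so these values showed no pairing by number. With deviations taken within 3 libraries per genotype, they cannot exclude such a pairing. With a replicate block 4 members were higher and 2 lower, 22 and 5 in the surrounding lists, and 4309 and 1863 over all tested genes. The block lost the calls of pat-2, him-4, unc-6, unc-112, spon-1 and ddr-1 (limma adjusted p 0.108, 0.0567, 0.074, 0.0923, 0.0546 and 0.0593), left 2 rises in the integrin adhesion list and gave 5 falls among oocyte and eggshell markers. Depth is unknown, and 3 libraries per genotype limit the precision.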
